A study of Mus musculus with 18 samples.

Results

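The 9 genes described here encode enzymes of DNA methylation and oxidation: Tet1, Tet2, Tet3, Dnmt1, Dnmt3a and Dnmt3b, which are deleted in 1 or both knockout lines of the study, and Dnmt3l, Uhrf1 and Tdg, which are not named in the deletions. Binding of CTCF was measured by ChIP-seq, the sequencing of DNA that is precipitated with an antibody from sonicated chromatin, in mouse embryonic stem cells, deposited as 1 peak list per genotype. A peak belongs to a gene when any of its summits lies inside the gene or within 10 kb of it (mm10). By that rule 45 merged regions of 78072 in the 3 lists lie at these genes, 36 at the 6 deleted genes and 9 at the 3 others. They hold 32 of 59372 peaks in SKO, 38 of 62238 in TKO and 41 of 71075 in WT.

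In the SKO line Tet1, Tet2, Tet3, Dnmt1, Dnmt3a and Dnmt3b are deleted, and in the TKO line Tet1, Tet2 and Tet3 only. WT carries neither deletion. Each genotype has 3 ChIP and 3 input samples, and the replicates were pooled before peaks were called, so a peak has 1 value per genotype, with no spread between replicates and no p-value. All 3 genotypes shared a serum replacement medium with LIF and, per the labels' protocols, irradiated mouse embryonic fibroblast feeders, whose chromatin may be present in the lysates. Each knockout is compared as 1 line: what the missing enzymes do and how the lines differ otherwise cannot be told apart. The labels give neither the deleted exons nor the number of clones, so a CTCF peak at a deleted gene does not check the genotype. Peak lists hold no expression, and the labelled cell type was not checked by markers.

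Methylation of cytosine in CpG is written by DNMT3A and DNMT3B, helped by the catalytically inactive DNMT3L, and copied after replication by DNMT1, which UHRF1 brings to hemimethylated DNA. The TET proteins oxidise 5-methylcytosine stepwise, and TDG excises the most oxidised forms so that base excision repair can restore cytosine. CTCF is a zinc finger protein that holds chromatin loops with cohesin, and part of its sites are known to bind it less well when a CpG in the motif is methylated. In mouse embryonic stem cells Tet1 and Tet2 are known as the main TET genes in use, and Dnmt3l and both de novo enzymes are expressed as well.

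Few promoter windows of these genes had a CTCF peak over them, too few to set apart from promoters in general, and 2 promoters under a peak are shown first. RefSeq (GRCm38.p6) gives 16 promoter windows for the 9 genes, each from 250 bases before a transcription start to 50 after it. A CTCF peak lay over 1 of them in SKO, 2 in TKO and 1 in WT, against 9.10%, 9.20% and 9.43% of all 32851 RefSeq windows in SKO, TKO and WT. The 2 TKO windows are neighbouring Dnmt1 starts under the same peak. The window held in every list belongs to a Dnmt1 start on the minus strand of chromosome 9. Its summit lay 75 bases upstream of that start in SKO, 136 in TKO and 135 in WT. This start lies inside the gene boundaries because RefSeq also gives a start further 5′, and which start these cells use was not measured. The peak of highest fold near Dnmt1 lies over the promoter of its neighbour Eif3g, a subunit of translation initiation factor 3, with summits 71, 70 and 91 bases upstream in SKO, TKO and WT. In every list, peaks also lay over promoters of Aire and Icosl near Dnmt3l and of 1190007I07Rik near Tdg. The Dnmt3b promoter, which has no peak over it in any list, is shown for contrast. The 250 bases before each start are printed 5′ to 3′ on the strand of the gene. Capitals mark matches to AGNNGGCNC on either strand in the Dnmt1 and Dnmt3b sequences, and the 22-base span of the 3 summits in the Eif3g sequence.
Dnmt1, chr9:20952980-20953229, minus strand: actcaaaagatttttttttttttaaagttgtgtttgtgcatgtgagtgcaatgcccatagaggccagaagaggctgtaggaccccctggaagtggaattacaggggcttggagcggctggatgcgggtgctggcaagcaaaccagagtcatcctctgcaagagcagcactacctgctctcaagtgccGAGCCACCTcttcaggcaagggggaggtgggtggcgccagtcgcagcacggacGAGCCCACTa
Eif3g, chr9:20898591-20898840, minus strand: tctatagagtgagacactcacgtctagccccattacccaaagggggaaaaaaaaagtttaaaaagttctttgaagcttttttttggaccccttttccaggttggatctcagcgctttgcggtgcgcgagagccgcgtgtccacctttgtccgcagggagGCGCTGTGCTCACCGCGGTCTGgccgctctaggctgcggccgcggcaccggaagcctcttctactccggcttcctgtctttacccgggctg
Dnmt3b, chr2:153649199-153649448, plus strand: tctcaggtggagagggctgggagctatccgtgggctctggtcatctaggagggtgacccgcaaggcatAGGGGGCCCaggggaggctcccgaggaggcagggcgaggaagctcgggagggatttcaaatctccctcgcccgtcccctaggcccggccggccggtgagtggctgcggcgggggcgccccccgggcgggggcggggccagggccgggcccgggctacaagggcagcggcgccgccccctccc

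The letters searched, AGNNGGCNC on both strands, come from the core of the CTCF motif. They occur in 21.2% of all windows and in 39.5% of those with a WT peak. The Dnmt1 sequence holds them 63 and 10 bases before the start, on the opposite strand, and the Dnmt3b sequence holds them 182 bases before the start. The Eif3g sequence, under a far stronger peak, does not hold them. A longer motif of 12 letters was found in no promoter window of the members. It occurs in 2.43% of all windows and in 10.3% of those with a WT peak. CpG counts in the same 250 bases were 7 in Dnmt1, 18 in Eif3g and 21 in Dnmt3b. These matches describe letters in a window and do not locate a binding site.

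Peak by peak, WT peaks without a partner in a knockout list were found at 5 of the 6 deleted genes, all but Dnmt1, and at 0 of the 3 others. These gene counts depend on how many WT peaks a gene has. Among protein-coding genes with as many WT peaks, every one was kept at 73.9% for Tdg (1 peak) and 59.9% for Dnmt3l (2). The share was 24.1% for Uhrf1 (5) and 19.6% for Dnmt1 (6). Of the 45 regions, 30 had a peak in all 3 lists: 22 of 36 at the deleted genes and 8 of 9 at Dnmt3l, Uhrf1 and Tdg. The deleted genes also had 5 regions with a WT peak alone, 4 with TKO and WT peaks, 4 with a TKO peak alone and 1 with SKO and WT peaks. The others had 1 further region, with an SKO peak alone. At the deleted genes 9 of 33 WT peaks (27.3%, 95% Wilson interval 15.1% to 44.2%) had no SKO peak over them, beside 21.9% of all WT peaks. The same count against TKO was 7 of 33 (21.2%, 10.7% to 37.8%), beside 19% of all WT peaks. At the other genes 0 of 8 WT peaks lacked an SKO or a TKO peak, an interval of 0% to 32.4% that overlaps both. Both shares of the deleted genes have the whole-list share inside their interval, so as a group they are near the background of the lists. The intervals cover counting error only.

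**Figure D1:**
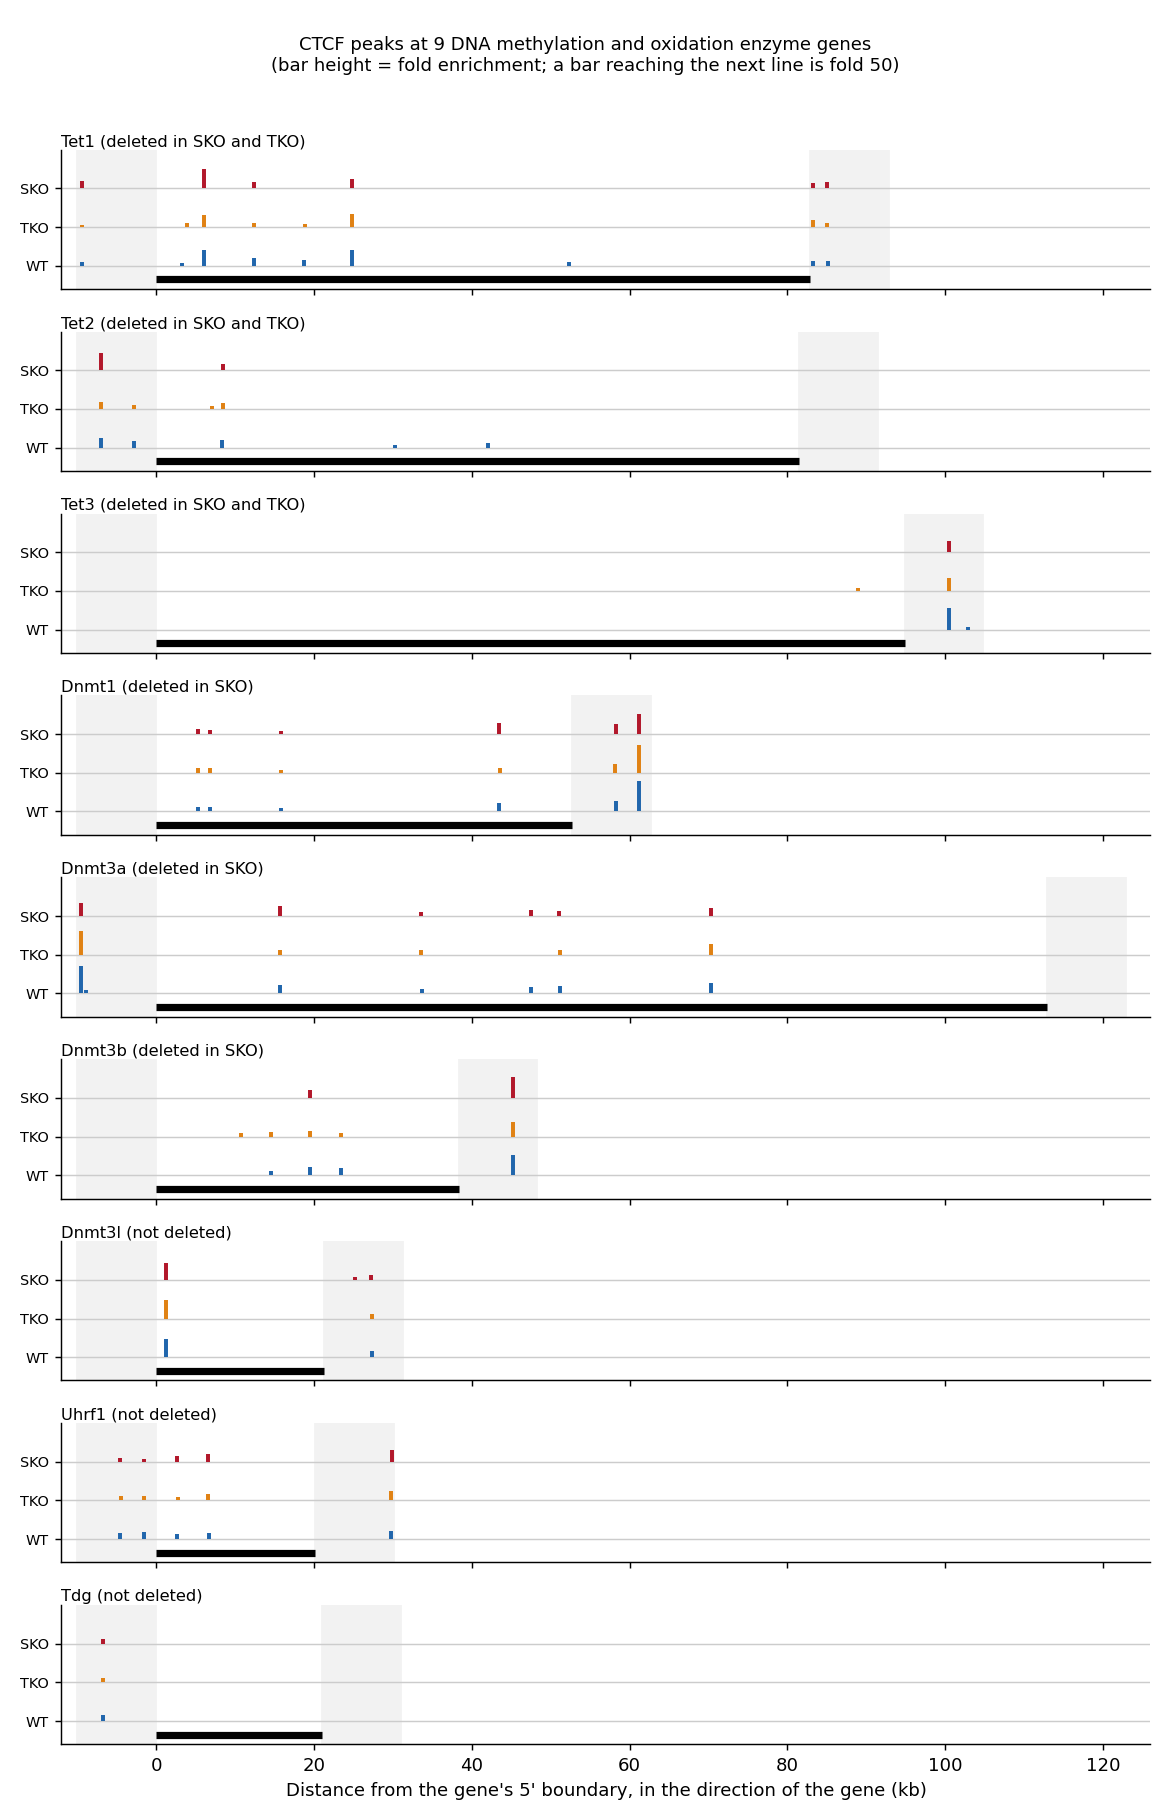
CTCF peaks at the 9 genes, 1 panel per gene, with SKO, TKO and WT on separate lines and the gene drawn as a black bar from its 5′ boundary. Distance from that boundary in kb runs along the gene, grey marks the 10 kb flanks and bar height is the authors' fold enrichment. In Tet1 the peaks missing from SKO lie between shared ones, in Tet2 the WT peaks at 30.2 and 42.1 kb lie beyond the last shared one, and Dnmt1 and Uhrf1 show the same peaks on every line.

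The missing peaks were unevenly spread among the deleted genes. At the 3 Tet genes 7 of 16 WT peaks (43.8%, 23.1% to 66.8%) had no SKO peak, beside 21.9% of all WT peaks. There 5 of 16 (31.2%, 14.2% to 55.6%) had no TKO peak, beside 19%. The Tet shares depend on the window. With 50 kb windows the WT peaks without an SKO peak were 4 of 18 at Tet1, 5 of 8 at Tet2 and 1 of 8 at Tet3. Those without a TKO peak were 3 of 18, 4 of 8 and 1 of 8. At Dnmt1, Dnmt3a and Dnmt3b 2 of 17 (11.8%, 3.29% to 34.3%) had no SKO peak, and 2 of 17 had no TKO peak. The 2 missing from SKO lie in Dnmt3b and the 2 missing from TKO belong to Dnmt3a, a gene that the TKO line keeps. WT peaks absent from both knockout lists numbered 5 of 33 at the deleted genes (15.2%), beside 9934 of 71075 (14%) in the whole WT list, a share near the background, and the 5 are at Tet genes. The Tet peaks missing from SKO lie in deciles 1 to 4 of WT peaks by −log10 q, decile 1 being the weakest. In those deciles the whole-list share without an SKO peak ran from 76.9% down to 24.6%. Whether the Tet share exceeds that of WT peaks of like strength was not tested. No test separates these genes from one another, since each list holds 1 pooled value per peak.

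**Figure D2:**
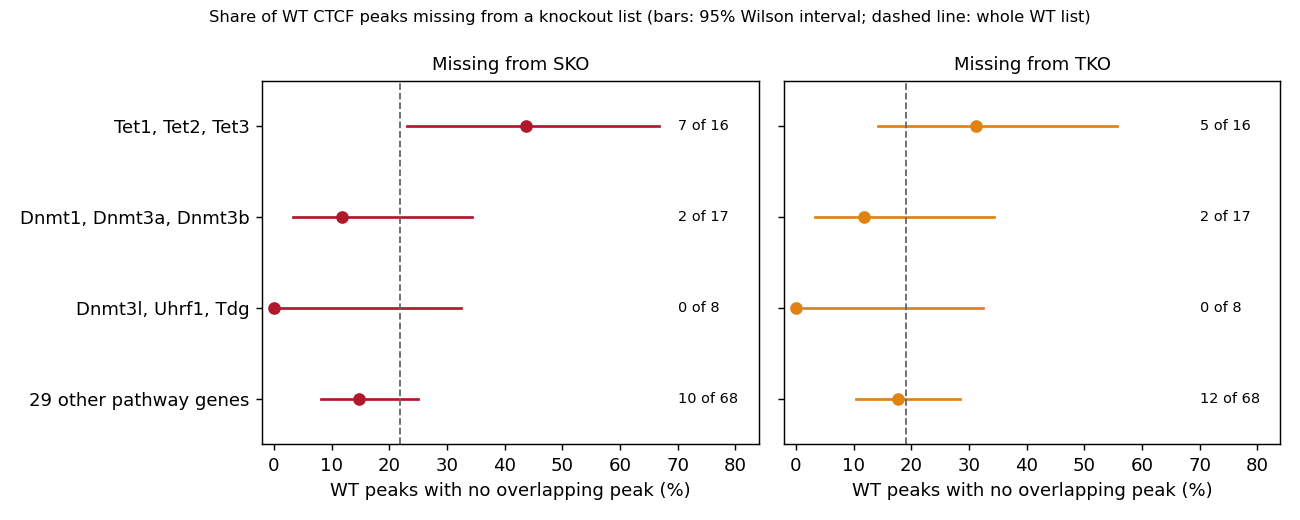
Share of WT peaks with no overlapping peak in SKO (left) or TKO (right), in percent, for the Tet genes, the 3 deleted Dnmt genes, the 3 other genes and 29 further pathway genes. Points are shares, bars are 95% Wilson intervals and the dashed line is the whole WT list (21.9% for SKO, 19% for TKO). The Tet genes stand at 43.8% and 31.2%, and the other 3 groups lie below the dashed line. The shares do not account for peak strength.

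Position inside or outside the gene was counted as well. Within the bodies of the deleted genes 7 of 21 WT peaks (33.3%, 17.2% to 54.6%) had no SKO peak, and in their flanks 2 of 12 (16.7%, 4.70% to 44.8%). The share of all WT peaks was 21.9%. Against TKO the counts were 5 of 21 (23.8%, 10.6% to 45.1%) inside and 2 of 12 (16.7%, 4.70% to 44.8%) in the flanks, beside 19% of all WT peaks. The intervals inside and in the flanks overlap and hold the whole-list shares, so both places are near the background. In SKO, Tet1, Tet2 and Dnmt3b each had a shared peak inside the gene, and the WT list had no peak inside Tet3. The neighbouring Tet2 peaks at 30.2 and 42.1 kb were both missing from both knockouts. Whether any missing peak lies in deleted DNA was not tested.

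Tet1 lies on the minus strand of chromosome 10 (62804570 to 62887469) and had 6 peaks in SKO, 8 in TKO and 9 in WT. Its strongest SKO peak, 6.08 kb inside the gene (chr10:62881171-62881631), had fold enrichment 25.5 in SKO, 15.7 in TKO and 20.5 in WT. Distances inside or upstream are from the 5′ boundary of the gene, and those past the gene from its 3′ boundary. The next strong one, 24.8 kb inside (chr10:62862412-62862870), had 12.0 in SKO, 16.6 in TKO and 20.6 in WT. Both were thus called in every genotype, in a gene deleted in both knockout lines to an extent that the labels do not give. Fold enrichment is the authors' own value. It divides the fragments piled up over the summit by the background around it, after the same constant is added to each. Its levels are set here across lists made separately. WT peaks absent from both knockouts lay 3.25 kb inside (chr10:62884114-62884331), with fold 4.06 and 17 fragments over the summit, and 52.4 kb inside (chr10:62834992-62835232), with fold 5.37 and 16 fragments. Another WT peak 18.7 kb inside (chr10:62868558-62868929) had no SKO peak, fold 3.85 in TKO and fold 7.14 in WT. A TKO peak 3.86 kb inside, with fold 4.75, had no partner in either other list. The WT peaks missing from SKO, at 3.25, 18.7 and 52.4 kb, lie before, between and past the shared ones at 6.08, 12.4 and 24.8 kb. Of these shared peaks, the one at 12.4 kb had fold 8.68 in SKO, 5.44 in TKO and 9.69 in WT.

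The Tet1 flanks kept their peaks. The upstream one, 9.41 kb before the gene and inside the predicted gene Gm51805, had fold 9.01 in SKO, 2.74 in TKO and 4.49 in WT. Its pileup was 32 fragments in SKO (95% Poisson interval 21.9 to 45.2), 25 in TKO (16.2 to 36.9) and 32 in WT (21.9 to 45.2). Background at the summit was 2.66 fragments in SKO, 8.50 in TKO and 6.34 in WT, so the fold differed more than the pileup did. Downstream peaks at 0.306 and 2.19 kb had folds 7.16 and 7.72 in SKO, 9.63 and 5.93 in TKO, and 6.11 and 5.75 in WT.

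Tet2 lies on the minus strand of chromosome 3 (133463677 to 133545136), with 2 peaks in SKO, 4 in TKO and 5 in WT. The peak 7.03 kb upstream (chr3:133551942-133552413) had fold 22.2 in SKO, 9.46 in TKO and 12.5 in WT, and the one 8.41 kb inside had 8.02 in SKO, 7.15 in TKO and 9.67 in WT. These were the only Tet2 peaks found in all 3 lists. A peak 2.78 kb upstream (chr3:133547757-133548086) was not in SKO and had fold 5.67 in TKO and 8.24 in WT. Deeper in the gene, WT peaks at 30.2 kb (fold 4.07) and 42.1 kb (fold 6.59, chr3:133502938-133503255) were in neither knockout. A TKO peak at 7.08 kb, with fold 3.36, had no partner. Of the deleted genes Tet2 had the highest share of its WT peaks missing from SKO, 3 of 5.

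Tet3, on the minus strand of chromosome 6 (83362373 to 83457208), had 1 peak in SKO, 2 in TKO and 2 in WT, although the gene is 94.8 kb long. Its shared peak lies 5.65 kb past the gene within Bola3, an iron-sulfur cluster assembly factor (chr6:83356485-83356958), with fold 15.0 in SKO, 16.9 in TKO and 27.7 in WT. The pileups behind it were 114 fragments in SKO, 133 in TKO and 144 in WT. The other WT peak, also in Bola3 (fold 3.62, 10 fragments), was in neither knockout, and a TKO peak 89.0 kb inside Tet3 (fold 3.93, 11 fragments) had no partner. Thus the only Tet3 peak inside the gene was a TKO peak.

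Dnmt1, on the minus strand of chromosome 9 (20907206 to 20959888), had 6 peaks in each list, all shared. The 4 inside the gene had folds of 4.10 to 14.4 in SKO, 3.93 to 6.72 in TKO and 4.55 to 11.3 in WT. The peak over the Dnmt1 promoter printed above was among the weaker ones, at 4.95 in SKO, 5.94 in TKO and 5.73 in WT. The Eif3g promoter peak had the highest fold at the 9 genes in TKO and WT, with fold 26.4 in SKO, 35.4 in TKO and 40.0 in WT. Past the gene a further shared peak had 13.3 in SKO, 11.4 in TKO and 13.2 in WT. Even the weakest Dnmt1 peak, 15.9 kb inside (fold 4.10 in SKO, 3.93 in TKO, 4.55 in WT), was called in every list. Both lines therefore have the same 6 peaks at the maintenance methyltransferase gene as WT, though SKO carries a deletion of unstated extent there.

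Dnmt3a, on the plus strand of chromosome 12 (3801559 to 3914443), had 6 peaks in SKO, 5 in TKO and 7 in WT. Upstream, 9.56 kb before the gene (chr12:3791732-3792889), the main summit had fold 17.0 in SKO, 30.6 in TKO and 35.9 in WT, with 101, 174 and 196 fragments in SKO, TKO and WT. By −log10 q it was the strongest peak of the 9 genes in TKO (198) and WT (237). A second WT peak in that region, of fold 4.44, had no TKO peak, and in SKO 1 interval with 2 summits covered both. The peak 47.5 kb inside (chr12:3848927-3849174) was missing from TKO and had fold 7.60 in SKO and 8.35 in WT. The remaining 4 peaks inside Dnmt3a were in all lists, with folds of 5.20 to 13.5 in SKO, 6.14 to 13.7 in TKO and 5.70 to 13.1 in WT. Every WT peak at Dnmt3a thus had an SKO peak, in the line where the gene is deleted to an unstated extent.

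Dnmt3b, on the plus strand of chromosome 2 (153649411 to 153687730), had 2 peaks in SKO, 5 in TKO and 4 in WT. The peak 23.4 kb inside (chr2:153672577-153672990) was not in SKO and had fold 5.27 and 18 fragments in TKO, and fold 9.77 and 32 fragments in WT. By fold and by −log10 q it is the strongest WT peak at a deleted gene missing from SKO. The peak 14.6 kb inside (chr2:153663835-153664080) was not in SKO either and had fold 6.03 in TKO and 5.92 in WT. Between them, the peak 19.5 kb inside (chr2:153668684-153669143) was kept, with fold 9.76 in SKO, 7.66 in TKO and 10.9 in WT. A TKO peak 10.7 kb inside, of fold 4.78, had no partner. The strong peak 6.94 kb past the gene had fold 27.2 in SKO, 19.4 in TKO and 26.1 in WT.

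**Figure D3:**
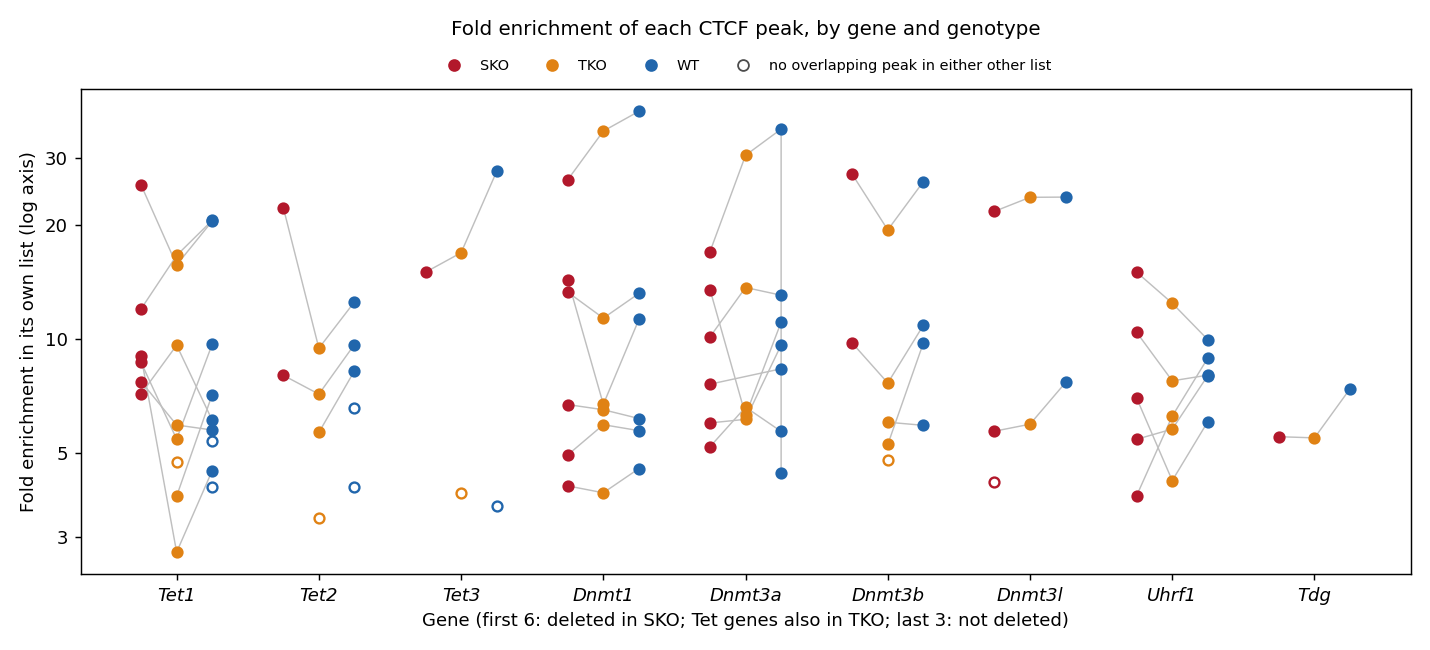
Fold enrichment of every peak at the 9 genes (log axis), with SKO, TKO and WT from left to right within each gene and grey lines joining peaks of 1 region; the vertical line at Dnmt3a joins the WT peaks of its upstream region. Open points have no overlapping peak in either other list. All open points lie under fold 7, and the 3 undeleted genes at the right have a single open point, the SKO peak of fold 4.20 near Dnmt3l.

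The genes that are not deleted had 9 peaks in SKO, 8 in TKO and 8 in WT. Uhrf1 (chromosome 17, 56303337 to 56323486) had 5 shared peaks, with folds of 3.86 to 15.0 in SKO, 4.23 to 12.4 in TKO and 6.05 to 9.97 in WT. The one 1.48 kb upstream of it had 3.86 in SKO, 6.26 in TKO and 8.91 in WT. The one 9.66 kb past it, in the demethylase gene Kdm4b, ran in the other direction, with 15.0 in SKO, 12.4 in TKO and 9.97 in WT. Dnmt3l (chromosome 10, 78042287 to 78063622) had a strong peak 1.26 kb inside, where it overlaps Aire, the regulator of self-antigen expression in the thymus. That peak had fold 21.7 in SKO, 23.7 in TKO and 23.7 in WT. Its summit lay 44 bases downstream of an Aire start in SKO, 45 in TKO and 61 in WT. Past the gene lay an SKO peak without a partner (3.85 kb, fold 4.20) and a shared peak with fold 5.71 in SKO, 5.96 in TKO and 7.68 in WT. Tdg (chromosome 10, 82629814 to 82650799) had a single peak in each list, 6.70 kb upstream, with fold 5.52 in SKO, 5.48 in TKO and 7.39 in WT.

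The missing WT peaks were weak ones. WT peaks were ranked by the authors' −log10 q and cut into 10 equal bins, decile 1 the weakest. Those missing from SKO at the deleted genes had a median fold of 5.92 (3.62 to 9.77) and those missing from TKO 4.44 (3.62 to 8.35), while the shared ones had 10.3 (against SKO) and 9.73 (against TKO). In deciles 1 to 5, 9 of 19 WT peaks at the deleted genes had no SKO peak, beside 43.3% of all WT peaks in those deciles, and 7 of 19 had no TKO peak, beside 37.6%. In deciles 6 to 10, 0 of 14 were missing from either knockout, where the whole list gives 0.512% for SKO and 0.357% for TKO. Dnmt3l, Uhrf1 and Tdg had 6 WT peaks in deciles 1 to 5, of which 0 were missing, but only 1 in deciles 1 to 3, where the whole-list share was 60.8% for SKO and 54.0% for TKO. The deleted genes had 11 WT peaks in deciles 1 to 3.

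**Figure D4:**
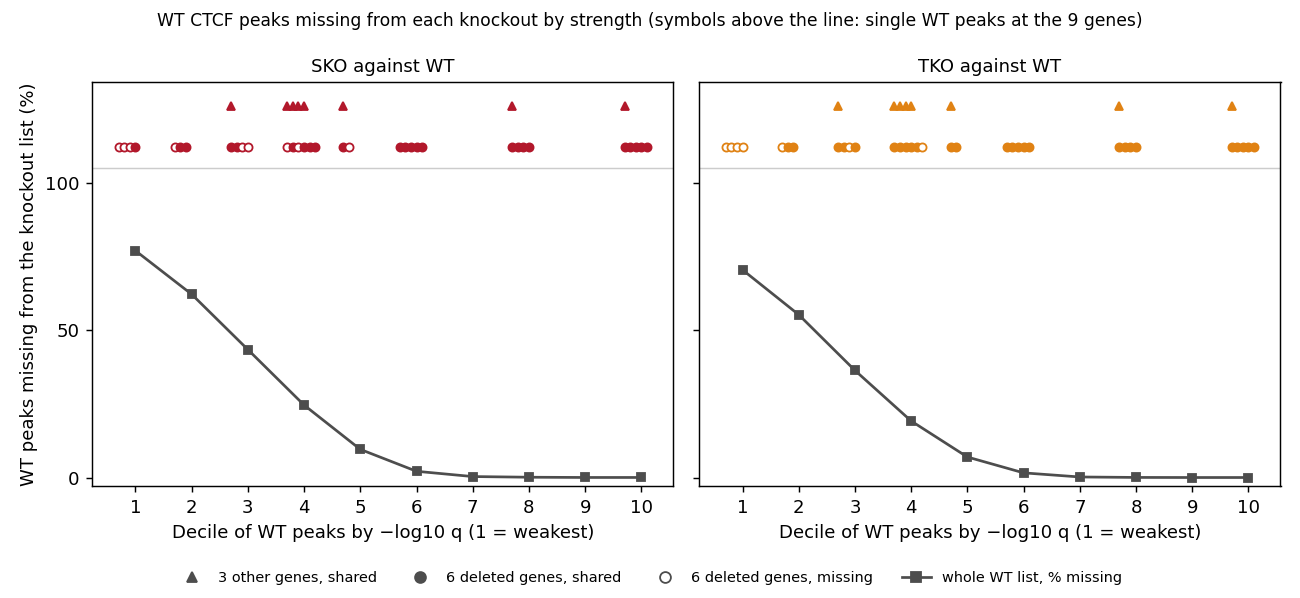
Percentage of all WT peaks missing from SKO (left) or TKO (right) in each decile of WT peak strength by −log10 q, drawn as squares joined by a line. Symbols above the grey line are the single WT peaks at the 9 genes in their deciles, open where missing. Every open symbol lies in deciles 1 to 5, where the whole-list share missing ran from 76.9% in decile 1 to 9.54% in decile 5 for SKO and from 70.4% to 6.95% for TKO.

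The strongest of the missing peaks lie in deciles 4 and 5. The Dnmt3b peak at 23.4 kb lies in decile 5, where 9.54% of all WT peaks had no SKO peak. The Dnmt3a peak at 47.5 kb, the strongest missing from TKO, lies in decile 4, where 19.2% of all WT peaks had no TKO peak. The Tet1 peak at 18.7 kb and the Tet2 peak 2.78 kb upstream, missing from SKO, also lie in decile 4, where the share for SKO was 24.6%.

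Depth differed between the lists. The lowest background in a list, its genome-wide level in fragments over a position, was 1.37 in SKO, 1.82 in TKO and 1.76 in WT, so SKO stood at 0.779 times and TKO at 1.04 times the WT level. A second measure, the median background at shared peaks, gave 0.678 times the WT level for SKO and 0.948 times for TKO, so the order of TKO and WT depends on the measure. Scaled by the lowest background, the 9 WT peaks missing from SKO had a −log10 p of 4.20 to 20.3 and the 7 missing from TKO 5.13 to 18.1. The lowest −log10 p of any peak was 3.34 in the SKO list and 3.32 in the TKO list, levels that 97.1% of all WT peaks missing from SKO and 100% of those missing from TKO also pass. The scaling therefore does not separate these peaks from other missing ones, and the part of depth in the missing peaks was not tested.

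Peaks without a WT partner were counted in the same way. In SKO 0 of 23 peaks at the deleted genes (0% to 14.3%) lacked a WT peak and 1 of 9 at the others (11.1%), beside 6.59% of the whole SKO list. In TKO 4 of 30 at the deleted genes (13.3%, 5.31% to 29.7%) lacked one and 0 of 8 at the others, beside 7.49% of the whole TKO list. The whole-list shares lie inside the intervals of the deleted genes. The 4 TKO peaks, in Tet1, Tet2, Tet3 and Dnmt3b, all lie inside genes, have folds of 3.36 to 4.78 and are in the weakest decile of the TKO list.

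Set directly against each other, the knockouts differed mostly by weak TKO peaks that SKO lacked. At the deleted genes 8 of 30 TKO peaks (26.7%, 14.2% to 44.4%) had no SKO peak, beside 14.5% of the whole TKO list, and the lower bound of that interval is just under that share. The reverse was 1 of 23 SKO peaks (4.35%), the Dnmt3a peak at 47.5 kb, beside 10.4% of the whole SKO list. Of the 8 TKO peaks, 5 were at Tet genes, deleted in both lines, and 3 in Dnmt3b, deleted in SKO but not in TKO. These 8 TKO peaks lie in deciles 1 and 2 of the TKO list by −log10 q. There 62.95% and 42.9% of all TKO peaks had no SKO peak. Decile 1 holds 7 of the 30 TKO peaks at the deleted genes. At the undeleted genes 0 of 8 TKO peaks and 1 of 9 SKO peaks had no partner.

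At shared peaks the authors' folds were set side by side, a description across lists made separately. TKO had the lower fold at 19 of 26 shared WT peaks of the deleted genes and 7 of 8 of the others, beside 62.1% of all shared peaks. In SKO the fold was lower at 13 of 24 and 5 of 8, beside 58.1%. The 24 include the weak Dnmt3a peak upstream of the gene, set against the strong summit of the wide SKO interval. Between the knockouts, SKO had the lower fold at 9 of 22 shared TKO peaks of the deleted genes and 4 of 8 of the others, beside 46.2%. The summits lay close together: in the 29 regions with a peak in all lists and 1 WT peak, the 3 summits spanned a median of 21 bp (1 to 104), and 28 spanned no more than 100 bp.

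Other genes of the same pathway were counted from a list of 29, covering readers of methylation, helpers of its maintenance, TET partners, repair enzymes and methyl donor synthesis, and chosen with earlier results of these lists known. They had 68 WT peaks, of which 10 (14.7%, 8.19% to 25%) had no SKO peak and 12 (17.6%, 10.4% to 28.4%) no TKO peak. The whole-list shares of 21.9% for SKO and 19% for TKO lie inside these intervals, so the list as a whole is near the background. Readers had 3 of 21 missing from each knockout. The maintenance group had 2 of 12 missing from SKO and 3 of 12 from TKO. TET partners had 3 of 9 missing from SKO and 2 of 9 from TKO, and repair and deamination genes 2 of 21 from SKO and 3 of 21 from TKO. The methyl donor genes Mat2a and Ahcy had 0 of 5 missing from SKO and 1 of 5 from TKO. Lig3, the ligase of base excision repair, had 2 of its 3 WT peaks missing from SKO and 2 of 3 from TKO. Usp7, the deubiquitinase that stabilises DNMT1 and UHRF1, had 2 of 5 missing from TKO, up to fold 9.77. Cxxc5, a CXXC zinc finger protein, had 2 of 7 missing from SKO, both of fold 3.55 or less.

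Genes with the same pattern of missing peaks as each deleted gene were counted across the genome. Likeness was the same number of WT peaks, of WT peaks missing from SKO and of WT peaks missing from TKO, among protein-coding genes with as many WT peaks. An exact pattern read from these data describes a gene and is not a test. For Tet1 17 of 262 genes (6.49%) shared the pattern, nearest in length Nol10, Ikzf3 and G3bp2. For Tet2 it was 39 of 1432 (2.72%), with Synj1, Ahnak and Arhgap20, and for Tet3 681 of 3818 (17.8%), with Ift88, Pamr1 and Slc4a7. The pattern of Dnmt1, with every peak kept, was shared by 191 of 973 (19.6%), nearest Fanca, Senp1 and Pstpip1. Dnmt3b had 30 of 2119 (1.42%), with Pank2, Fam186b and Emid1, and Dnmt3a 5 of 590 (0.847%), with Slmap, Trpm7 and Creb3l1. At least as many WT peaks missing from SKO were found in 29.8% of genes with 9 WT peaks (Tet1), 6.91% of those with 5 (Tet2), 33.2% of those with 2 (Tet3) and 17.5% of those with 4 (Dnmt3b). For Dnmt1 and Dnmt3a, with 0 missing from SKO, that share is 100% by definition.

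The choice of 10 kb sets which peaks are counted. The last peak inside it was the Kdm4b peak near Uhrf1, at 9.66 to 9.69 kb, and the first outside lay 10.1 kb from Tet1, with fold 4.84 in SKO, 11.4 in TKO and 8.03 in WT.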

How the data were processed

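CTCF ChIP-seq peak lists of 3 genotypes were used, each called on 3 pooled ChIP replicates against input, per the labels. Per the submitters' processing notes the tools included MACS2 2.1.2, Bowtie2 2.3.4 and bedtools 2.25.0, along with SAMtools 1.9, deepTools 3.5.0 and FastQC 0.11.7, and the build was mm10. Commands and filters: not given in the sources used here. The deposited lists give each peak a score, a fold enrichment (a ratio of ChIP fragments to background), a −log10 p, a −log10 q and a summit offset, all as the authors' caller wrote them. Library totals were not used here. ChIP pileup and background were solved from fold and −log10 p. A whole pileup gave back the −log10 p within 1e-04 of its value for 99.6% of SKO, 99.5% of TKO and 99.4% of WT peaks. PCR reads without molecular identifiers are not independent molecules, so all intervals cover counting error only.

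Rows of equal interval were joined, and a peak counted as shared at 1 bp of overlap with a peak of the other list. bedtools 2.31.1 gave the same 6 whole-list counts of unmatched peaks. Genes and promoters came from RefSeq GRCm38.p6, the assembly behind mm10; exons and introns were not used here. Shares carry 95% Wilson intervals and pileups 95% Poisson intervals. The search for overlapping peaks was first tested on simulated peak intervals, and the solving of pileups on simulated pileups. The Wilson and Poisson intervals were not part of these tests. Work was done in Python 3.11.15 with NumPy 2.4.6, SciPy 1.17.1, pandas 2.3.3 and matplotlib 3.10.9. All 9 genes are named, the 29 pathway genes are counted by subgroup, with up to 4 of those with most missing WT peaks named, and for each deleted gene the 3 genes of like pattern nearest in length are named. The alternatives were the gene body alone, 50 kb windows, summits within 100 bp, overlap of 50% of a peak, −log10 q of at least 5, the strongest summit alone, and another measure of depth. The members and lists were chosen with earlier results of these data known.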

Additional observations from a re-analysis of the deposited data

How the results depend on the processing

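No paired analysis was possible because the replicates were pooled before peaks were called, and for the same reason no replicate could be left out. Of 74 alternative values for the shares and depth scaling of the gene groups, 70 moved by less than their 95% interval. The exceptions concern the SKO peak near Dnmt3l: the share of SKO peaks at the 3 other genes without a WT peak, and without a TKO peak, was 11.1% and became 0% with the gene body alone (0 of 3) and 0% with peaks under a −log10 q of 5 left out (0 of 7), settings that leave that peak out. At single genes 102 alternative values stayed within that interval and 2 moved, both of Tet3, whose weak WT peak falls under a −log10 q of 5. The alternatives reuse many of the same peaks and the intervals are wide, so these counts are a weak check. The Tet3 share of WT peaks without an SKO peak went from 50% to 12.5% with 50 kb windows and still counted as unmoved. At the 6 deleted genes the share of WT peaks without an SKO peak ran from 20.3% to 33.3% over all settings, and that without a TKO peak from 17.6% to 24.2%. The share at the 3 other genes ran from 0% to 10.7% for SKO and from 0% to 12.5% for TKO. Its higher values came from 50 kb windows for SKO (3 of 28) and, for TKO, from asking for summits within 100 bp or an overlap of 50% of the peak (1 of 8 each). The pooled lists limit all shares: 8 WT peaks at the 3 other genes allow up to 32.4% missing.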

Other observations

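CTCF peaks at 6 stem cell genes (Pou5f1, Nanog, Sox2, Esrrb, Klf4 and Zfp42) and at 6 genes typical of fibroblasts, the feeder cell type (Col1a1, Col1a2, Thy1, Vim, Fn1 and Postn), were counted in the same windows. At the stem cell genes 11 of 32 WT peaks (34.4%, 20.4% to 51.7%) had no SKO peak and 6 of 32 (18.8%, 8.89% to 35.3%) no TKO peak. At the fibroblast genes 4 of 20 (20%, 8.07% to 41.6%) had no SKO peak and 3 of 20 (15%, 5.24% to 36.0%) no TKO peak. All of these intervals hold the share of the whole WT list, 21.9% for SKO and 19% for TKO, and CTCF peaks at these genes do not measure how many feeder cells a sample held.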
